A study of Oryctolagus cuniculus with 12 samples.

Results

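The mRNA levels of the tumor necrosis factor (TNF) superfamily ligands and receptors were measured in rabbit conjunctiva after trabeculectomy, a glaucoma operation in which aqueous humor is led under a flap of sclera and collects as a bleb beneath the conjunctiva. The genes were taken by name: those whose symbols begin with TNFSF or TNFRSF and a digit, with 1 name set aside, plus FAS, FASLG, CD40, CD40LG, CD27, CD70, LTA, LTB, and LTBR. Of 20566 genes in the table, 31 matched, and 30 of these had at least 10 estimated counts in at least 3 libraries. LTA, the gene of lymphotoxin alpha, did not, and its highest estimated count was 13. The 30 members were 14 ligands and 16 receptors, of which 4 carry a death domain (FAS, TNFRSF1A, TNFRSF21, and TNFRSF25), 1 is a soluble decoy (TNFRSF11B), and 11 are other receptors. Several members of the family, such as TNFSF9, TNFRSF4, TNFRSF18, and the cell-surface receptors of TNFSF10, were not analysed here.

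Female Japanese white rabbits of 12 to 14 weeks of age were operated on in the right eye with mitomycin C, a DNA-crosslinking agent that limits scarring. The groups TL-3h, TL-3d, and TL-14d held conjunctiva with its bleb, taken at 3 hours, 3 days, or 14 days after surgery, and the group cont held conjunctiva of left eyes, which were not operated on. Each group had 3 libraries, 12 in all. No group had the drugs without the operation. Comparisons with cont therefore do not separate the operation from mitomycin C or from the betamethasone and antibiotic ointment given with it. Neither the time at which the control tissue was taken nor the operated eye that each control belongs to is given in the labels. The libraries were therefore treated as unpaired. Whether the replicates were separate animals is not stated in the labels, so the p-values measure the spread between these libraries.

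Ligands of the TNF superfamily are mostly trimers on the cell surface that may be shed, and they act by clustering their receptors. Receptors with a death domain can recruit FADD or TRADD and start apoptosis, while the others bind TRAF adaptors and turn on NF-κB and MAP kinases. In wounded or inflamed mucosa, members of the family carry signals between epithelium, vessels, and leukocytes, and they shape the survival of T cells and B cells, the formation of osteoclasts, and tissue repair.

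The total estimated count per library ranged from 27111348 to 38591425. TMM factors were 0.768 to 0.783 in TL-3h and 1.03 to 1.13 in the other groups. In the library TL-14d 1, log2 levels correlated with those of the control libraries at a mean r of 0.959 and with those of the other TL-14d libraries at 0.883, over 13253 genes. For TL-14d 2 and TL-14d 3, the mean r with the control libraries was 0.886. TL-14d 1 therefore stood nearer to the controls than to its own group, and results that rest on it are given with and without it. Since it was singled out by its likeness to the controls, leaving it out can widen the difference from cont by that choice alone. Epithelial genes (KRT5, KRT4, EPCAM, CDH1) summed to 3710 to 7913 CPM (counts scaled to a common library size) in cont, 3901 to 6368 CPM in TL-3h, 5962 to 15900 CPM in TL-3d, and 8074 to 12350 CPM in TL-14d. The keratins KRT5 and KRT4 made up most of these sums. Of the 4 genes, only EPCAM passed against cont at 3 hours (higher, q = 8.84e-04) and only KRT5 at 3 days (higher, q = 0.0291), when the means of EPCAM and CDH1 lay below those of cont. PAX6, an eye surface transcription factor, was at 200 to 382 CPM in cont, 54.0 to 113 CPM in TL-3h (q = 0.00693), 111 to 147 CPM in TL-3d, and 116 to 326 CPM in TL-14d. KRT13, KRT14, and MUC5AC were not analysed here.

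Markers of other cells moved with the groups too. The summed level of the 5 neutrophil markers was 3.25 to 76.0 CPM in cont, 967 to 2556 CPM in TL-3h, 115 to 695 CPM in TL-3d, and 3.16 to 113 CPM in TL-14d. The 5 monocyte and macrophage markers summed to 68.1 to 602 CPM in cont, 637 to 973 CPM in TL-3h, 1245 to 2003 CPM in TL-3d, and 89.3 to 409 CPM in TL-14d. Endothelial markers summed to 63.7 to 275 CPM in cont, 606 to 1211 CPM in TL-3h, 294 to 549 CPM in TL-3d, and 88.8 to 282 CPM in TL-14d. PECAM1 made up most of the TL-3h sums (mean 716 CPM, against 55.8 CPM in cont). Of the 5 endothelial genes, 2 passed at 3 hours (PECAM1 and CDH5, both higher). The means of KDR (18.6 against 32.8 CPM) and TEK (6.36 against 8.09 CPM) were lower in TL-3h than in cont. Fibroblast markers summed to 8525 to 53000 CPM in cont, 69380 to 87410 CPM in TL-3h, 1066 to 45230 CPM in TL-3d, and 7363 to 39350 CPM in TL-14d. COL1A1, COL1A2, and DCN made up most of these sums, and the mean of PDGFRA was 167 CPM in cont and 175 CPM in TL-3h. Of the 5 fibroblast genes, 0 passed against cont at any of the times. The 5 T cell markers summed to 6.52 to 22.0 CPM in the 12 libraries, and CD3D among them was lower than cont at 3 hours (q = 0.0478). The 3 B cell markers measured summed to between 0.973 and 8.59 CPM. No marker in the table was at 0 in every library. The part of these shifts in the results below was not tested, and in whole tissue fewer cells of a type and less RNA per cell cannot be told apart.

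In the control conjunctiva, a few members held most of the family's mRNA on the scale that is divided by transcript length (FPKM). TNFRSF21, the death receptor DR6, was at 85.2 ± 33.5 FPKM (SD, n = 3) and TNFSF10, the apoptosis ligand TRAIL, at 84.8 ± 25.8 FPKM. LTBR, the lymphotoxin beta receptor, followed at 71.2 ± 18.2 FPKM, and these 3 levels did not differ beyond their spread. TNFSF13 (APRIL, a factor for plasma cells) was at 41.9 ± 10.7 FPKM, TNFRSF1B (TNF receptor 2) at 28.5 ± 2.36 FPKM, TNFRSF1A (TNF receptor 1) at 24.6 ± 8.05 FPKM, and TNFRSF11A (RANK) at 16.6 ± 5.79 FPKM. TNFRSF1B and TNFRSF1A again lay within each other's spread. The lowest mean was that of TNFSF18, the ligand of the GITR receptor, at 0.0616 ± 0.0847 FPKM. In 2 of its 3 control libraries it had no more than 3 counts. Its highest control library (0.160 FPKM) lay above the mean of TNFRSF13C (0.113 FPKM), so this last place is not settled.

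The order of levels changed with time. At 3 hours, TNFRSF12A, the receptor of the ligand TWEAK, rose from the ninth place to the highest level of the family at 406 ± 35.3 FPKM, while LTBR and TNFRSF21 were next at 106 ± 17.9 and 102 ± 15.5 FPKM. TNFSF10 was then at 12.9 ± 5.09 FPKM. In TL-3d, TNFSF10 led at 237 ± 46.6 FPKM, ahead of LTBR at 92.3 ± 7.42 and TNFRSF12A at 81.0 ± 11.98 FPKM, which did not differ beyond their spread. In TL-14d, TNFSF10 was at 109 ± 61.2, TNFRSF21 at 107 ± 27.6, and TNFRSF12A at 56.2 ± 54.7 FPKM, and without TL-14d 1 the mean of TNFRSF12A (81.6 FPKM) was the third highest, above that of LTBR (66.2 FPKM). TNFSF11 (RANKL) stood at 22.3 FPKM there with an SD of 32.0, so the 3 libraries gave it no settled place.

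**Figure D1:**
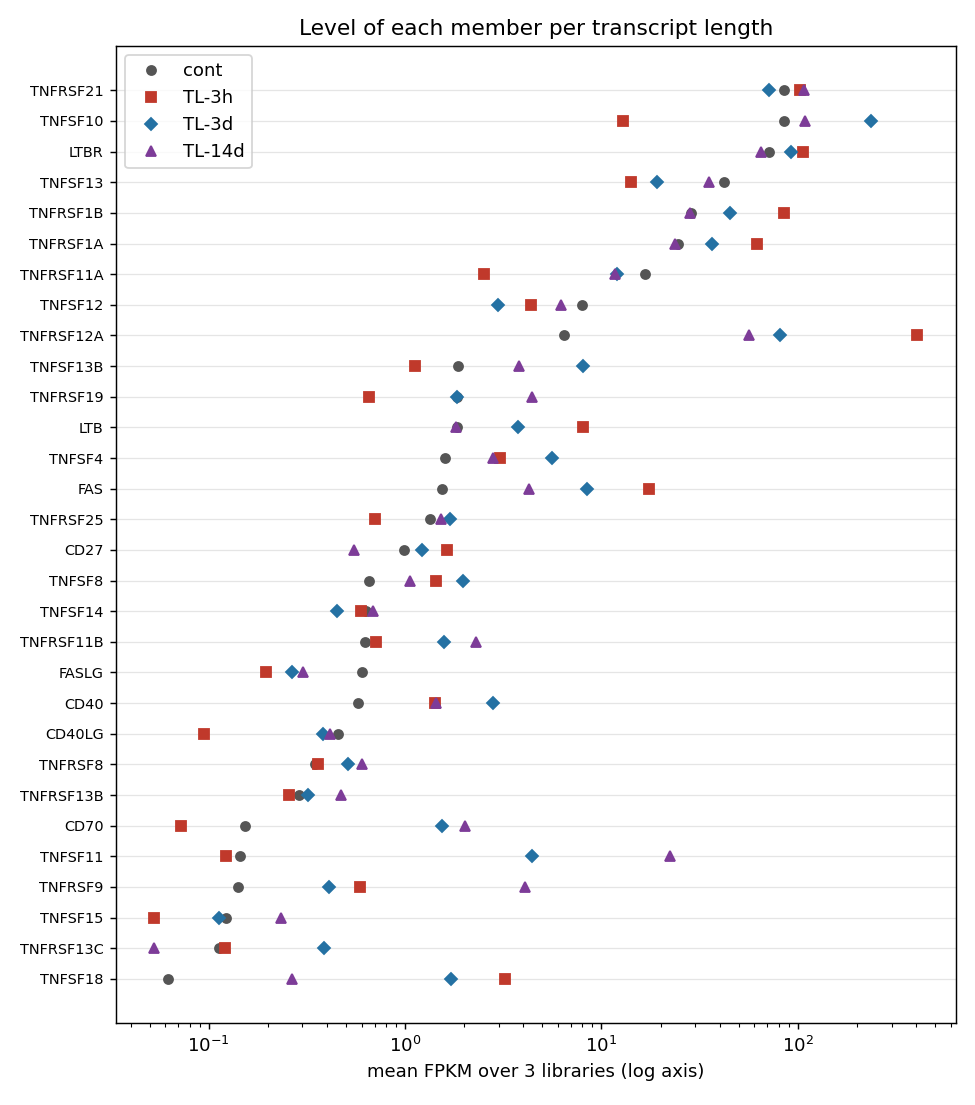
Mean level of the 30 members on a log axis of FPKM, with 1 mark for each group of 3 libraries (cont, TL-3h, TL-3d, TL-14d) and the members ordered by their control level. The red square of TNFRSF12A lies at 406 FPKM against a control mark at 6.45, and the marks of TNFSF10 span 12.9 (TL-3h) to 237 FPKM (TL-3d).

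Each group was compared with cont in 1 edgeR fit over 14835 genes, with a threshold of q ≤ 0.05, where q is the p-value adjusted over all genes tested. All 30 members were in the test. At 3 hours, 11 of 30 members passed (36.7%), 9 higher and 2 lower, against 45.4% of all genes tested (23.2% higher and 22.2% lower). The members thus changed at 3 hours no more often than genes in general. At 3 days, 9 of 30 passed, all of them higher, against 17.6% of all genes (10.6% higher). At 14 days no member passed, and neither did any other gene (0%), although 7 members and 1538 genes had an unadjusted p under 0.05. In the same comparison, DESeq2's test called 3 members and 367 genes, and limma-trend called none. The median log2 fold change of the members was 0.54, 0.60, and 0.505 in these comparisons, in order of time, against 0.024, -0.002, and 0.018 over all genes. When libraries were scaled by their totals only, the median over all genes at 3 hours was -0.47 and 24.98% of all calls were higher, in place of 51.0%, but no member that had passed changed direction. The members then split into 7 higher and 5 lower at 3 hours, with TNFSF4 and TNFRSF9 lost and TNFRSF19, TNFRSF25, and TNFSF13 gained as lower.

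The filter bears on the counts for rare members. Of the 30, 21 had at least 10 counts in all 12 libraries and 5 in 9 to 11 libraries. The other 4 (CD40LG, TNFRSF13C, TNFRSF13B, and CD70) had them in 5 libraries each. TNFRSF13C reached 10 counts in 3 TL-3d libraries and in 1 each of cont and TL-3h, and CD70 in 3 TL-3d and 2 TL-14d libraries, so both entered through the groups in which they were high. Without these 2, 8 of 28 members passed at 3 days. TNFSF18 reached 10 counts in 1 cont, 3 TL-3h, 3 TL-3d, and 2 TL-14d libraries, so it also met the filter through operated groups. It stays in the counts over 28 members, here and below. In all, 15 members passed the threshold in at least 1 comparison with cont, 5 of them at both 3 hours and 3 days, and these 2 comparisons share their controls.

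**Figure D2:**
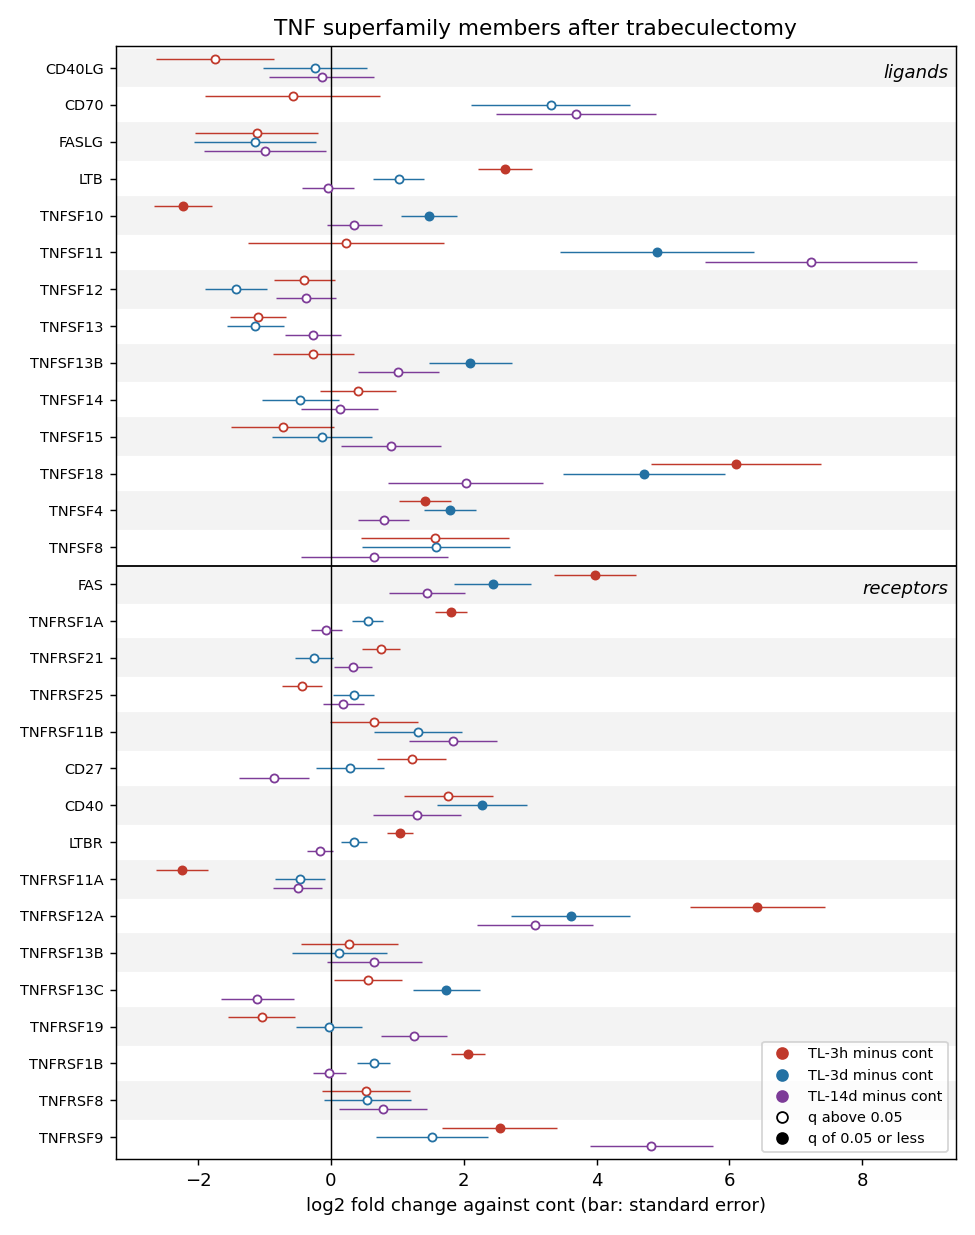
Log2 fold change of each member against cont (x axis), 1 mark per operated group, with the standard error of the fit as bars. Filled marks have q of 0.05 or less. The farthest filled marks are TNFRSF12A at 6.42 and TNFSF18 at 6.10 for TL-3h, and TNFSF10 is filled on both sides of 0, at -2.22 for TL-3h and 1.48 for TL-3d.

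Among the receptors with a death domain, FAS and TNFRSF1A rose at 3 hours and FAS was still raised at 3 days. FAS, which triggers apoptosis when bound by FASLG, was at 4.49, 4.78, and 5.34 CPM in cont and at 83.0, 70.9, and 75.9 CPM in TL-3h. In TL-3d it was at 36.6, 24.8, and 17.5 CPM, and in TL-14d at 3.43, 26.5, and 9.90 CPM. All TL-3h and TL-3d libraries lay above all control libraries, whereas TL-14d 1 lay below them. The log2 fold change of FAS was 3.98 ± 0.62 (SE, q = 6.94e-04) at 3 hours and 2.43 ± 0.59 (q = 0.0236) at 3 days. FASLG, its ligand, was low and overlapped between the groups, with a log2 fold change of -1.12 ± 0.93 (q = 0.361) at 3 hours and -1.14 ± 0.92 (q = 0.397) at 3 days.

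TNFRSF1A, the main receptor of soluble TNF, was at 56.3, 58.9, and 104 CPM in cont and at 281, 285, and 200 CPM in TL-3h. The TL-3d libraries were close together at 107, 105, and 111 CPM, and the TL-14d libraries were at 76.9, 66.2, and 65.9 CPM. At 3 hours the groups did not overlap, and the log2 fold change was 1.80 ± 0.24 (q = 2.79e-04). At 3 days it was 0.56 ± 0.23 and missed the threshold (q = 0.115). TNFRSF21 was at 329, 441, and 204 CPM in cont and at 641, 514, and 483 CPM in TL-3h, a log2 difference of 0.75 ± 0.29 that missed the threshold (q = 0.0558). TNFRSF25 (DR3) was low, between 1.76 and 5.01 CPM in all libraries, and its ligand TNFSF15 between 0.0366 and 2.58 CPM, with no call for either against cont.

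TNFRSF12A had the largest log2 fold change of all members at 3 hours, but that of TNFSF18 (6.10 ± 1.28) lay within its standard error. Its level was 2.42, 2.70, and 9.11 CPM in cont and 425, 438, and 357 CPM in TL-3h. The mean of TL-3h was 85.8 times the control mean, and 158.9 times without cont 3. In TL-3d it was 53.6, 66.5, and 53.4 CPM, and in TL-14d 3.83, 80.6, and 35.4 CPM. The log2 fold change was 6.42 ± 1.02 (q = 7.23e-04) at 3 hours and 3.61 ± 0.89 (q = 0.0258) at 3 days. The gene (unplaced sequence of OryCun2.0, 301439811 to 301440851, plus strand) overlaps HCFC1R1 on the minus strand, and all 12 of its estimated counts were fractions. Whether the counting used the strand of the library kit is not given in the sources used here, so reads of the 2 genes may not be told apart. HCFC1R1 moved the other way at 3 hours (log2 fold change -1.60, q = 0.0112). TNFSF12 (TWEAK), the ligand, lay at 7.81, 9.36, and 11.8 CPM in cont and 1.999, 3.17, and 5.58 CPM in TL-3d, and its log2 difference of -1.43 ± 0.47 at 3 days missed the threshold (q = 0.0588).

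TNFRSF1B, the second TNF receptor, which is found mainly on leukocytes and endothelium, had the smallest p of the members at 3 hours. It was at 83.2, 78.4, and 75.0 CPM in cont and at 324, 415, and 250 CPM in TL-3h. The levels were 126, 135, and 108 CPM in TL-3d and 104, 76.7, and 51.6 CPM in TL-14d. The log2 fold change was 2.06 ± 0.26 (q = 2.12e-04) at 3 hours. At 3 days the libraries still lay above the controls, but the difference of 0.64 ± 0.25 missed the threshold (q = 0.0946).

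TNF itself, the ligand of both TNF receptors and no member by the rule, was low: 0.214, 0.800, and 0.176 CPM in cont and 4.27, 2.74, and 3.48 CPM in TL-3h. Its difference did not pass at 3 hours (log2 3.13, q = 0.0746). In TL-14d it was at 0.235, 24.8, and 1.53 CPM, so 1 library held most of the signal.

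LTBR, which binds the lymphotoxin heterotrimer and TNFSF14 (LIGHT) and is known for lymphoid organ formation, was at 71.4, 72.9, and 117 CPM in cont and at 211, 156, and 168 CPM in TL-3h. The groups did not overlap, and the log2 fold change was 1.04 ± 0.20 (q = 0.00198). LTB, the membrane subunit of that ligand, was at 2.63, 4.68, and 3.49 CPM in cont and at 23.8, 32.9, and 9.66 CPM in TL-3h. Its log2 fold change was 2.62 ± 0.41 (q = 6.63e-04) at 3 hours and 1.02 ± 0.39 at 3 days (q = 0.0912), with 8.24, 7.21, and 6.43 CPM in TL-3d. TNFSF14 showed no call, with 0.401 to 1.80 CPM in cont and 0.805 to 2.15 CPM in TL-3h. LTBR and LTB thus rose together at 3 hours. LTA, the other subunit, had no more than 13 counts in any library, too few to judge a change in it.

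TNFRSF11A and TNFSF11 are receptor and ligand of the RANK system, which drives osteoclast formation and also acts in epithelium and lymph nodes. TNFRSF11A was at 85.0, 76.8, and 43.3 CPM in cont and fell to 19.6, 9.87, and 13.9 CPM in TL-3h, below every control (log2 fold change -2.24 ± 0.39, q = 0.00120). At 3 days it was at 45.1, 55.7, and 47.8 CPM, within the control range. TNFSF11 was at 0.404, 0.300, and 0.251 CPM in cont and 0.4997, 0.332, and 0.293 CPM in TL-3h. It rose at 3 days to 5.37, 16.4, and 7.29 CPM (log2 fold change 4.91 ± 1.46, q = 0.0444), a call that was lost under 12 of 20 alternatives, with the replicate block among them (q = 0.0527).

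In TL-14d, TNFSF11 was at 0.403, 128, and 17.4 CPM. TL-14d 1 lay in the control range, and the other libraries lay above all controls. The log2 fold change at 14 days was 7.24 ± 1.60 with q = 0.346, and without TL-14d 1 it was 7.82 with q = 0.00538. Without TL-14d 2 it was 4.78 with q = 0.978. The soluble decoy TNFRSF11B (osteoprotegerin), which binds TNFSF11, was at 1.21, 0.750, and 2.21 CPM in cont, 2.72, 2.62, and 5.04 CPM in TL-3d, and 1.31, 9.32, and 4.30 CPM in TL-14d. None of its comparisons with cont passed (q = 0.178 at 3 days and 0.413 at 14 days).

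CD40, which receives T cell help on B cells and macrophages, was at 0.760, 1.30, and 1.68 CPM in cont and at 4.61, 5.39, and 2.74 CPM in TL-3h. At 3 days it was at 4.67, 6.71, and 6.72 CPM. The rise passed at 3 days (log2 fold change 2.27 ± 0.68, q = 0.0448, lost under 11 of 20 alternatives) and just missed the threshold at 3 hours (1.77 ± 0.67, q = 0.0532), although both groups lay above all controls. CD40LG, its ligand on activated T cells, was no higher than 0.484 CPM in any library, and its highest estimated count was 17.

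TNFRSF9 (4-1BB), a costimulatory receptor of activated T cells, was at 0.380, 0.275, and 0.276 CPM in cont and 1.08, 2.86, and 1.54 CPM in TL-3h (log2 fold change 2.54 ± 0.86, q = 0.0342). In TL-14d it was at 7.46, 18.4, and 0.814 CPM, all above the controls and far apart from each other (log2 fold change 4.83 ± 0.93, q = 0.346). TL-14d 1, which otherwise resembled the controls, was among the higher libraries here.

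**Figure D3:**
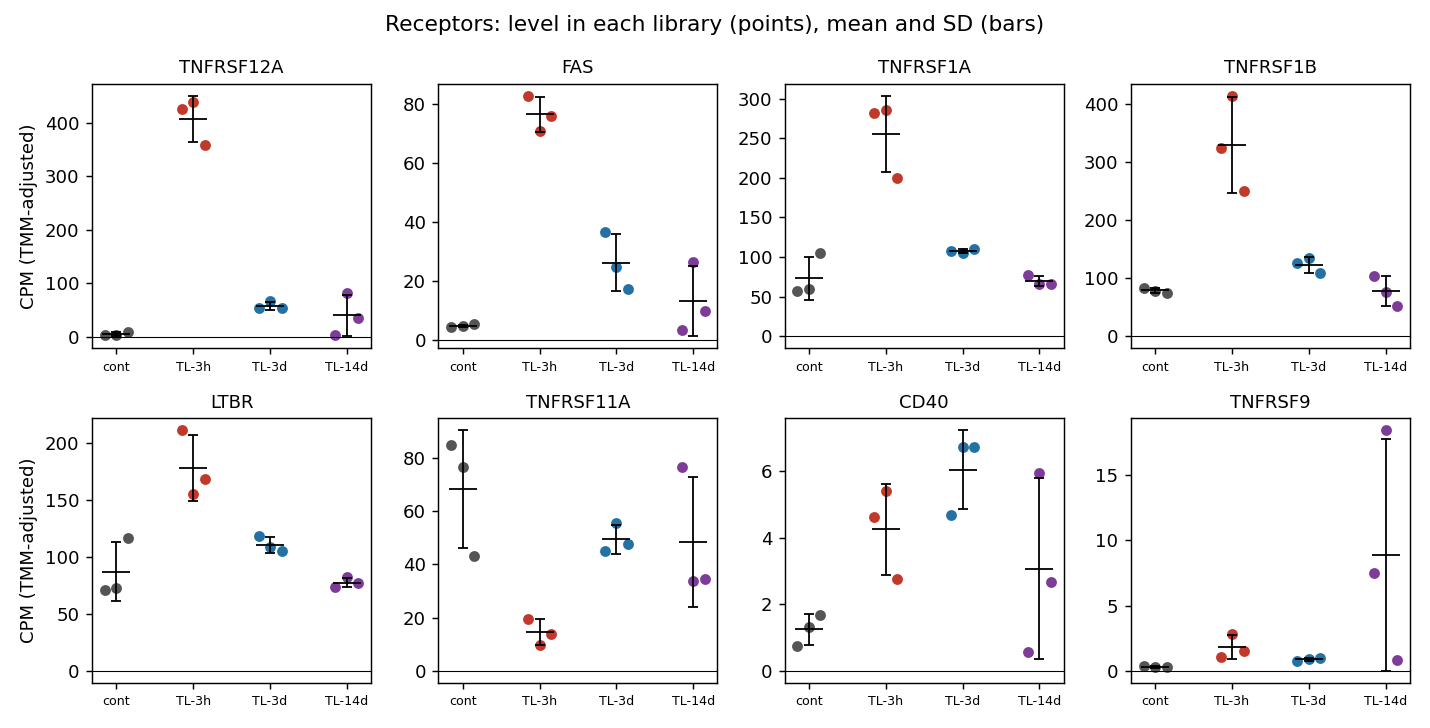
Level of 8 receptors in each library (points, CPM with TMM-adjusted library sizes, linear axes), with the mean and SD of each group of 3. For TNFRSF12A, FAS, TNFRSF1A, TNFRSF1B, and LTBR the TL-3h points lie above all others, for TNFRSF11A they lie below all others, and for TNFRSF9 the TL-14d points range from 0.814 to 18.4 CPM.

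Of the ligands, LTB, TNFSF18, and TNFSF4 rose and TNFSF10 fell at 3 hours, and 5 ligands rose at 3 days. TNFSF10 passed in both directions. It was at 250, 245, and 146 CPM in cont, fell to 50.1, 62.2, and 25.2 CPM in TL-3h, and was at 526, 718, and 539 CPM in TL-3d. The TL-3h libraries lay below, and the TL-3d libraries above, every control. The log2 fold change was -2.22 ± 0.43 (q = 0.00232) at 3 hours and 1.48 ± 0.42 (q = 0.0403) at 3 days. In TL-14d it was at 181, 447, and 192 CPM and overlapped with cont (q = 0.791).

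TNFSF18 and TNFSF4 (OX40 ligand), which costimulate T cells, lie side by side on chromosome 13 (608869 to 621656 and 702363 to 716883, both on the minus strand), 80.7 kb apart. TNFSF18 was at 0.0237, 0.0250, and 0.326 CPM in cont, where 2 of 3 libraries were under the floor of 3 counts (0.0712 to 0.0753 CPM in cont). It rose to 7.27, 11.99, and 7.10 CPM in TL-3h and was at 2.30, 3.30, and 4.44 CPM in TL-3d. The log2 fold change was 6.10 ± 1.28 (q = 0.00346) at 3 hours and 4.71 ± 1.22 (q = 0.0293) at 3 days, and its size depends on the few control counts. TNFSF4 was at 1.04, 1.001, and 0.928 CPM in cont, 2.84, 3.03, and 2.05 CPM in TL-3h, and 3.42, 3.82, and 3.10 CPM in TL-3d. Its log2 fold change was 1.41 ± 0.39 (q = 0.0144) at 3 hours and 1.80 ± 0.40 (q = 0.0183) at 3 days, the smallest p of the members at that time. FASLG, the next gene on the chromosome at 329 kb from TNFSF18, showed no call.

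TNFSF13B (BAFF), the survival factor of B cells, overlapped with cont at 3 hours (2.23, 2.57, and 1.87 CPM against 1.59, 3.73, and 2.68 CPM in cont). It rose at 3 days to 5.47, 15.2, and 13.6 CPM (log2 fold change 2.10 ± 0.62, q = 0.0446), which was lost under 12 of 20 alternatives. TNFRSF13C, the BAFF receptor, was at 0.166, 0.175, and 0.351 CPM in cont and 0.575, 0.739, and 1.02 CPM in TL-3d, on no more than 36 estimated counts in any library. Its log2 fold change of 1.74 ± 0.50 passed at 3 days (q = 0.0416), but it had entered the test through TL-3d, and with the replicate block it missed the threshold (q = 0.0534). TNFRSF13B (TACI), which also binds BAFF, had at most 16 counts and no call. The 3 B cell markers measured summed to 0.973 to 3.09 CPM in cont and 2.16 to 7.23 CPM in TL-3d, and MS4A1 passed among them at 3 days (q = 0.0349).

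TNFSF13 was at 47.9, 40.7, and 30.1 CPM in cont, 28.9, 9.67, and 16.8 CPM in TL-3h, and 18.4, 21.6, and 14.1 CPM in TL-3d. Both groups lay below every control, and neither passed (q = 0.0570 and 0.0846). TNFSF13 and TNFSF12 are neighbours 1.12 kb apart on the minus strand of chromosome 19.

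CD70, the ligand of CD27, was under 0.21 CPM in all control and TL-3h libraries. It was at 2.77, 1.02, and 0.427 CPM in TL-3d and at 0.101, 3.94, and 1.43 CPM in TL-14d. Its log2 difference from cont was 3.31 ± 1.19 at 3 days (q = 0.0776) and 3.69 ± 1.21 at 14 days (q = 0.388), the latter 4.24 with q = 0.0449 without TL-14d 1. CD27, a receptor of T cells and memory B cells, was at 0.831, 2.30, and 1.03 CPM in cont and 2.42, 5.10, and 2.16 CPM in TL-3h (q = 0.0806). TNFSF8 and TNFRSF8, ligand and receptor of the CD30 pair, had no call in any comparison with cont. TNFSF8 ranged from 1.30 to 13.4 CPM within TL-3d alone.

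**Figure D4:**
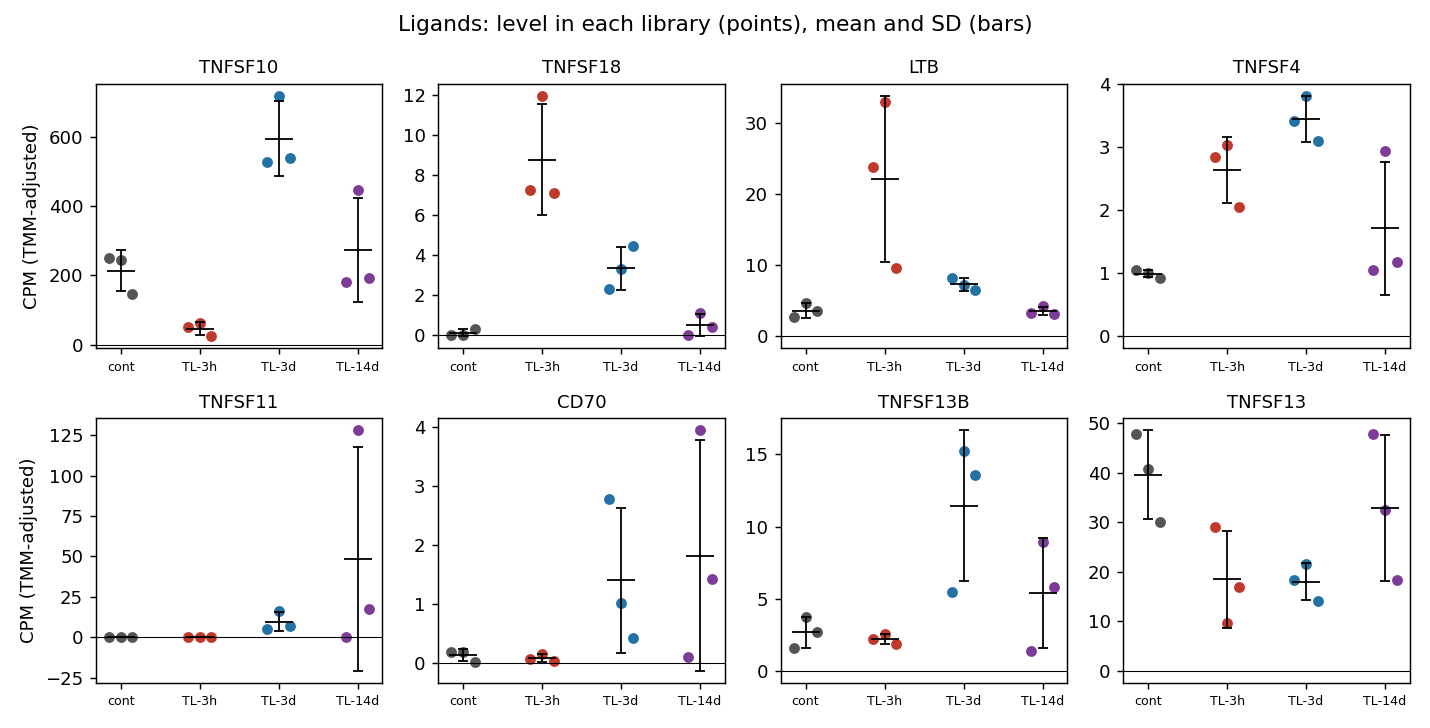
Level of 8 ligands in each library (points, CPM with TMM-adjusted library sizes, linear axes), with the mean and SD of each group of 3; where the SD exceeds the mean, its bar passes below 0. The TL-3h points of TNFSF10 lie below all others and its TL-3d points above, the TL-3h points of TNFSF18 lie above all others, and 1 TL-14d library holds TNFSF11 at 128 CPM.

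Of the 11 calls at 3 hours, 9 passed under every alternative tried. TNFSF4 missed the threshold when scaled by library size only (q = 0.0806) and without TL-3h 2 (q = 0.0524), and TNFRSF9 missed it under 7 alternatives (q up to 0.117, without TL-3h 2). At 3 days, none of the 9 calls passed under every alternative. Without cont 1, cont 2, TL-3d 1, or TL-3d 2, 0 members passed. The share of all genes that passed fell there too, from 17.6% to 3.25%, 2.46%, 2.97%, and 2.37% in that order. Without TL-14d 1, 12 members passed, when 25% of all genes did. At 14 days without TL-14d 1, 5 members passed, all higher (TNFSF11, TNFRSF9, FAS, TNFRSF12A, and CD70), beside 4.74% of all genes, and CD70 among them had entered the test through TL-3d and TL-14d. The log2 fold changes of FAS and TNFRSF12A without TL-14d 1 were 1.90 (q = 0.0320) and 3.61 (q = 0.0138). Without TL-14d 2, no member and no other gene passed at 14 days.

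The operated groups were also compared with each other. Between 3 days and 3 hours, 11 of 30 members passed, 5 higher and 6 lower at 3 days, near the 37.3% of all genes (18.4% higher and 19.0% lower). The smallest p was that of TNFSF10, which was higher at 3 days by 3.70 ± 0.46 on the log2 scale (q = 2.56e-04). TNFSF11, TNFSF13B, and TNFRSF11A were also higher at 3 days, and so was CD70, which had entered the test through TL-3d and TL-14d. Without CD70 and TNFRSF13C, 10 of 28 members passed in this comparison and 13 of 28 between 14 days and 3 hours. TNFRSF12A, LTB, TNFRSF1B, TNFRSF1A, TNFRSF21, and LTBR were lower, the last of these by -0.68 ± 0.20 (q = 0.0201). Of the 11 calls, 5 passed under every alternative, and when scaled by library size only LTBR (-0.21, q = 0.375) and TNFRSF21 (-0.53, q = 0.188) missed the threshold. TNFRSF19, TNFRSF25, and TNFRSF13C were then gained as higher, so that 8 members were higher and 4 lower. Between 14 days and 3 hours, 15 of 30 passed, 6 higher and 9 lower at 14 days, against 45.3% of all genes (22.9% higher and 22.3% lower), and 11 of the 15 passed under every alternative. With library size only, the balance turned to 10 higher and 8 lower. TNFRSF19 (TROY), which had no call against cont, was at 5.42, 2.24, and 6 CPM in TL-3h and 12.6, 29.6, and 24.7 CPM in TL-14d, higher by 2.29 ± 0.52 (q = 0.00525). TL-3h libraries are shared by these 2 comparisons.

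Genes that act below the receptors were taken from lists of the pathway. Of 12 adaptors and ubiquitin enzymes tested, 6 rose at 3 hours (FADD, TRAF6, RIPK1, BIRC2, BIRC3, and RNF31) and TRAF3 fell, and only BIRC3 passed at 3 days. With library size only, the balance at 3 hours turned to 1 higher (BIRC3) and 4 lower (TRAF3, TRADD, TRAF5, and RBCK1), and BIRC3 did not pass at 3 days. BIRC3, a ubiquitin ligase induced by NF-κB, was at 52.1, 71.1, and 63.9 CPM in cont and 302, 187, and 330 CPM in TL-3h (log2 fold change 2.13, q = 0.00882). Of 9 kinases and their partners, 6 rose at 3 hours and TAB1 and TAB2 fell. With library size only, 2 of the 6 (MAP3K8 and CHUK) still passed. MAP3K8 rose from 9.04, 7.63, and 11.1 CPM to 31.8, 33.8, and 31.2 CPM, and no kinase passed at 3 days. Of 7 brakes on the pathway, TNFAIP3 and TNIP2 rose and OTULIN fell at 3 hours, of which TNIP2 did not pass with library size only. TNFAIP3, which encodes the deubiquitinase A20, was at 17.4, 20.7, and 45.3 CPM in cont and at 207, 218, and 150 CPM in TL-3h (log2 fold change 2.79, q = 0.00180).

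Among the genes of cell death, CASP10 and CFLAR rose at 3 hours (CFLAR not with library size only) and CASP10 was also higher than cont at 3 days (log2 fold change 1.65, q = 0.0406), while CASP8, the caspase recruited by FADD, had no call at either time. Of 6 superfamily genes outside the rule, EDA, EDAR, EDA2R, and NGFR fell and RELT rose at 3 hours. EDA, the ligand ectodysplasin of hair and gland development, was at 9.07, 10.01, and 13.6 CPM in cont and 2.04, 1.54, and 1.79 CPM in TL-3h (log2 fold change -2.60, q = 1.19e-04). RELT was at 0.760, 0.750, and 0.652 CPM in cont and 15.9, 10.95, and 10.02 CPM in TL-3h (log2 fold change 4.08, q = 0.00181). The adaptors, kinases, and brakes had no call at 14 days, with or without TL-14d 1. The superfamily genes outside the rule had none in the 12 libraries. Without TL-14d 1, 3 of 6 passed (TNF, EDAR, and RELT, all higher), beside 4.74% of all genes. Of these, TNF had most of its signal in 1 library (24.8 CPM in TL-14d 2). The median log2 fold change at 3 hours was 0.303 for the adaptors, 0.746 for the kinases, 0.404 for the brakes, and -1.56 for the superfamily genes outside the rule, against 0.024 over all genes. The background share of 45.4% of all genes at 3 hours holds for these lists too.

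Of the 30 members, 7 had more than 1 listed transcript. In TNFRSF1A and LTB, 1 transcript held at least 95.3% and 94.6% of the counts in every library. The 2 FAS transcripts kept about their ratio, and the more abundant one held a mean of 71.4% of the FAS transcript counts in cont, 75.4% in TL-3h, 76.5% in TL-3d, and 73.7% in TL-14d. TNFRSF21 shifted, in that its transcript with 50.6% in cont (range 49.3 to 52.4) held 40.3% in TL-3h (36.1 to 45.0) and 50.2% in TL-3d (49.0 to 51.0), a description with no test. TNFRSF19, TNFRSF25, and TNFSF14 varied too much between libraries of 1 group to describe a shift.

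Genes whose levels followed a leading member most closely over the 12 libraries were found by Pearson's r of log2 CPM, which also carries the differences between the groups that the libraries share. For TNFRSF1B they were MXD1 (r = 0.978), ZNF335 (0.973), and KMT2B (0.970), and for TNFRSF1A they were METTL12 (0.988), PTGIR (0.982), and IL6R (0.981). TNFSF4 was followed by SKAP2 (0.977), PTPRE (0.975), and RIN3 (0.971), and FAS by PSMD12 (0.992), TDG (0.991), and UBE2A (0.991).

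On the genome, several members lie close to each other. TNFRSF1A (chromosome 8, 32400420 to 32415628), LTBR (32456018 to 32460851), and CD27 (32506907 to 32513654) lie within a short stretch of OryCun2.0, with SCNN1A between TNFRSF1A and LTBR, and the first of them rose with the second at 3 hours while CD27 missed the threshold. LTA and LTB flank TNF on chromosome 12. TNFRSF1B and TNFRSF8 are 35.5 kb apart, and TNFSF14 and CD70 20.3 kb apart, on unplaced sequence. In the last 2 pairs, 1 member changed in a comparison and its neighbour did not pass, and the difference within the pairs was not tested.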

How the data were processed

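The authors mapped the reads of stranded mRNA libraries with STAR (2.6.0c per the labels) to OryCun2.0, a rabbit assembly, and deposited an estimated count per gene and per transcript, of which 23.4% per gene were fractions, and FPKM values scaled by length and depth. How a read with several placements was divided is not given in the sources used here.

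The estimated counts were rounded, filtered with filterByExpr (minimum count 10, minimum total 15), and normalized by TMM in edgeR 4.0.16 (R 4.3.3). A single quasi-likelihood model without covariates was fitted to the 12 libraries, and 5 contrasts were tested with Benjamini-Hochberg adjustment over 14835 genes (threshold 0.05). The plan named counts, and its test was kept for estimated counts. Log2 fold changes use a prior count of 0.125, with the standard error taken from the fold change and the F statistic. CPM values use TMM-adjusted library sizes. The deposited FPKM values served to compare levels between genes and to show their order in each group. They carry no TMM adjustment, so their changes between groups differ in size from those in CPM. No test used them. A floor of 3 counts was 0.0712 to 0.124 CPM and covers counting error only. With 3 against 3 libraries an exact permutation test cannot reach the threshold, so none was run.

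Members given in full are those past the threshold against cont with an absolute log2 fold change of at least 1, beside their ligand or receptor partners. The values of 1 tested gene of the pathway lists are not reported here, and 4 listed adaptors or cell death genes were not in the test. The members and lists were chosen with earlier results of these data known. The alternatives were DESeq2 1.42.0 size factors and its test, library size only, limma-trend (limma 3.58.1), 2 other filters, the 6 libraries compared, a replicate block, and leaving out each library. The fit was checked on simulated data. Coordinates and names are those of the deposited gene table, and no sequence is shown.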

Additional observations from a re-analysis of the deposited data

Results flagged for a closer look

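The members below were flagged because their effects at 2 times differed by a direct test in the edgeR fit, which is the contrast between the operated groups. All values are log2 differences, and 36.7% of members passed between 3 days and 3 hours and 50% between 14 days and 3 hours, near or at the share of all genes given in the report.

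At 3 days, levels were lower than at 3 hours for TNFRSF12A (-2.82), LTB (-1.60), TNFRSF1B (-1.42), TNFRSF1A (-1.25), TNFRSF21 (-1.01), and LTBR (-0.68). They were higher for TNFSF11 (4.68), CD70 (3.89), TNFSF10 (3.70), TNFSF13B (2.36), and TNFRSF11A (1.78). Of 20 alternatives, CD70 missed the threshold under 8, TNFRSF12A under 6 (each library of either group left out), TNFSF11, LTBR, and TNFRSF21 under 4 each, and TNFSF13B under 2.

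At 14 days, levels were lower than at 3 hours for TNFSF18 (-4.07), TNFRSF12A (-3.35), LTB (-2.66), FAS (-2.53), TNFRSF1B (-2.09), CD27 (-2.07), TNFRSF1A (-1.88), TNFRSF13C (-1.66), and LTBR (-1.20). They were higher for TNFSF11 (7.004), CD70 (4.27), TNFSF10 (2.58), TNFRSF19 (2.29), TNFRSF9 (2.29), and TNFRSF11A (1.74). For TNFSF11, CD70, and TNFRSF9, TL-14d overlapped with TL-3h, and the difference of TNFRSF9 missed the threshold under 14 of 20 alternatives (q up to 0.230, without TL-14d 2). TNFRSF13C, CD70, and TNFSF18 missed it under 6, 4, and 1 of them.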

How the results depend on the processing

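No direction of a called member reversed under any alternative. The number of members past the threshold stayed within 1.5 times its value for TL-3h against cont and TL-14d against TL-3h under every alternative. For TL-3d against cont, leaving out 1 library gave 0 to 12 members in place of 9. There were 0 without cont 1, cont 2, TL-3d 1, or TL-3d 2, beside 3.25%, 2.46%, 2.97%, and 2.37% of all genes. There were 4 without TL-3h 1 (13.97% of all genes) and 5 without TL-3d 3 (15.2%) or TL-14d 3 (13.9%). The share of all genes was 17.6% in the main fit and 25% without TL-14d 1. For TL-14d against cont, DESeq2's test gave 3 members (TNFSF11, TNFRSF9, and TNFRSF12A), beside 2.47% of all genes. Leaving out 1 library gave 0 to 5 members there, beside 0% to 4.74% of all genes. For TL-3d against TL-3h, leaving out 1 library gave 5 to 12 in place of 11, and 26.2% to 41.2% of all genes in place of 37.3%. Why these counts moved was not tested, but a left-out library also leaves fewer samples. Of the results for single members, 2693 kept their sign and their side of the threshold, and 130 lost and 66 gained a call. In the other 79, the fold change had the opposite sign, with no call in the main fit or the alternative.

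Scaling by library size only moved the median over all genes at 3 hours from 0.024 to -0.473. The share of calls that were higher went from 51.0% to 24.98% there, from 49.2% to 80.5% between 3 days and 3 hours, and from 50.7% to 77.6% between 14 days and 3 hours. No member's call changed direction. The deviations of same-numbered libraries from their group means correlated at -0.17 to 0.50, and at over 0.1 in 8 of 18 pairs. These values do not settle whether the libraries were paired. The labels do not say that equal numbers mark 1 animal, so the numbers were not taken as pairs. With a replicate block, 14, 7, 0, 11, and 14 members passed in the 5 contrasts, against 11, 9, 0, 11, and 15. The share of all genes that passed with the block was 46.8%, 18.3%, 0%, 39.3%, and 46.1%. Depth limits CD40LG, TNFRSF13B, TNFRSF13C, and CD70, which had 10 counts in 5 libraries each.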
